A study of Homo sapiens with 19 samples.

Results

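Cells with control siRNA and a control vector were compared with cells that had received the control siRNA and no vector. All cells were MDA-MB-231, an established human line from a triple-negative breast cancer, and all had been transfected with 30 nM of a control siRNA. The comparison used 7 of the 17 RNA-seq libraries of the series: 3 from cells with control siRNA and control vector (NC_Vec) and 4 from cells with control siRNA alone (NC). The members were taken from the sample titles. The medium, L15 with 10% serum from fetal calves, was the same for both groups, and polyA RNA was sequenced. The other libraries, used where stated, came from cells with siRNA against STAT3 (siSTAT3, 2 libraries) or HMGN5 (siHMGN5, 2 libraries), or against STAT3 together with the control vector (siSTAT3_Vec, 3 libraries) or with HMGN5 (siSTAT3_HMGN5, 3 libraries). The design text of the series describes a first experiment with siRNA alone and a later one in which cells were also infected with a lentiviral vector. It names STAT3 siRNA cells there, and NC_Vec is placed in the later experiment by its control vector. Infection and experiment batch thus change together: all NC_Vec libraries have the vector and all NC libraries lack it. The effect of the vector and that of the experiment cannot be told apart in any value below.

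Lentiviral vectors enter a cell as enveloped particles, are reverse transcribed and integrate into the host genome, which gives lasting expression of a cargo gene. An empty vector carries the same backbone without the cargo and serves as the reference for the cargo. Infected cells can respond to the particle, its RNA or DNA, or the integration, so a cargo is usually compared with an empty vector rather than with uninfected cells. A control siRNA enters the RNA interference machinery without being aimed at the gene under study. In bulk RNA a change in the makeup of the culture and a change of RNA per cell cannot be told apart.

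The deposited tables give a level for each of 175775 Ensembl transcript IDs and do not pair the IDs with genes. Changes are therefore described per transcript, 4 IDs are named, and the markers of the cell line could not be looked up. NC libraries held 19331347 to 19509422 estimated reads and NC_Vec libraries 22500086 to 23047081, so that 3 reads, used here as the detection floor, stood for 0.149 to 0.157 CPM (reads scaled to library size) in NC and 0.133 to 0.139 CPM in NC_Vec. At least 1 read was assigned to 81669 to 83995 transcripts in NC and to 84327 to 86001 in NC_Vec. The 100 most abundant transcripts of a library took 15.1% to 16.3% of the reads in NC and 14.3% to 15.2% in NC_Vec. Whether the replicates were grown as separate cultures is not in the labels. All p-values therefore refer to the spread among these libraries alone, which may be technical.

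The NC libraries stood apart as 2 pairs, replicates 1 and 2 and replicates 3 and 4, and this spread lies inside every comparison with NC. Over 15955 transcripts at a mean of 10 CPM or more, the median absolute log2 difference between libraries, on log2(CPM + 0.5), was 0.15 within the first pair, 0.17 within the second and 0.14 to 0.18 among the NC_Vec libraries. Between the pairs it was 0.35 in each of the 4 combinations. NC_Vec libraries lay 0.41 to 0.47 from NC replicates 1 and 2 and 0.53 to 0.57 from NC replicates 3 and 4. By this measure the 3 NC_Vec libraries were further from either NC pair than the NC pairs were from each other, and nearer to the first pair than to the second. Differences over 2-fold separated 17.6% to 21.3% of these transcripts between NC_Vec and NC replicates 1 and 2, 24.6% to 27.4% between NC_Vec and NC replicates 3 and 4, and 12% to 12.4% between the NC pairs. Over transcripts with whole-number reads, the mean chi-square per transcript, near 1 where libraries differ by counting noise alone, was 1.92 and 2.3 within the NC pairs and 3.13 to 5.83 among the NC_Vec libraries. It was 41.6 to 47.9 between the NC pairs, which overlaps the 43.9 to 50.2 between NC_Vec and NC replicates 1 and 2, and it was 70.5 to 79.9 between NC_Vec and NC replicates 3 and 4. On these transcripts the NC pairs were thus about as far from each other as NC_Vec was from the first pair. Transcripts with whole-number reads held only 0.80% to 0.91% of the reads of these libraries. The chi-square also grows with depth, which was higher in NC_Vec.

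**Figure D1:**
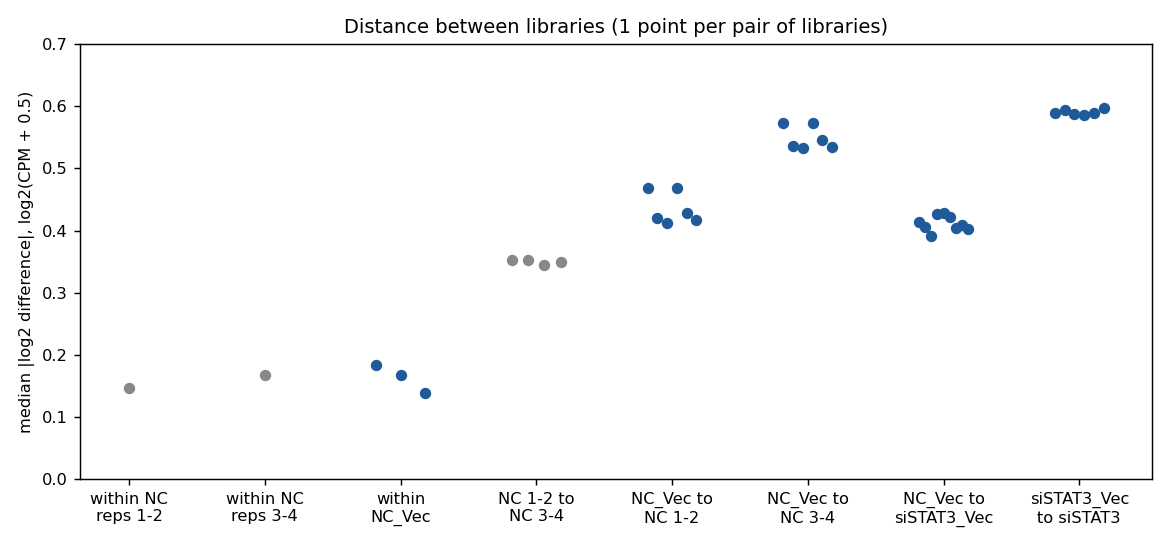
Distance between libraries as the median absolute difference of log2(CPM + 0.5) over 15955 transcripts, 1 point for each pair of libraries in the 8 classes on the horizontal axis, grey between NC libraries and blue where a vector group takes part. Points within NC_Vec or an NC pair lie between 0.14 and 0.18, those between the NC pairs at 0.35, those from NC_Vec to NC between 0.41 and 0.57, those from NC_Vec to siSTAT3_Vec between 0.39 and 0.43, and those from siSTAT3 to siSTAT3_Vec between 0.59 and 0.6.

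ENST00000311177.6, a transcript of 2581 bases, rose in the empty-vector cells. Its level was 10.9, 12.9, 13.6 and 12.4 CPM in NC replicates 1 to 4 and 88.1, 78.6 and 78.7 CPM in NC_Vec replicates 1 to 3. The groups did not overlap, which the rule for naming required, and the log2 difference between the NC pairs was 0.11 (edgeR adjusted p = 0.737). The NC mean of 12.5 ± 1.12 CPM (SD, n = 4) compared with an NC_Vec mean of 81.8 ± 5.49 CPM (SD, n = 3), a 6.56-fold rise or 2.70 ± 0.10 on the log2 scale (SE; adjusted p = 0.000523, Benjamini-Hochberg, from the quasi-likelihood test of edgeR). The log2 fold change was 2.76 against NC replicates 1 and 2 (adjusted p = 0.00119) and 2.65 against NC replicates 3 and 4 (adjusted p = 0.00076). Per length, its level went from 2.95 ± 0.223 to 18.1 ± 0.513 TPM (a share of the transcripts of a library, corrected for length).

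The same transcript was high in every library with a vector. It lay between 53.6 and 60.7 CPM in the 6 libraries of siSTAT3_Vec and siSTAT3_HMGN5 and between 17.1 and 21.1 CPM in the 4 libraries of siHMGN5 and siSTAT3. In STAT3 siRNA cells the rise from siSTAT3 to siSTAT3_Vec was 2.8-fold (log2 fold change 1.48 ± 0.07, edgeR adjusted p = 0.00117). The rise was larger under control siRNA than under STAT3 siRNA by 1.22 ± 0.13 on the log2 scale (edgeR interaction contrast, adjusted p = 0.000726).

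ENST00000375256.4, a transcript of 3646 bases, fell. It lay at 30.5, 26.9, 62.2 and 51.1 CPM in NC replicates 1 to 4 and at 7.08, 8.13 and 7.96 CPM in NC_Vec replicates 1 to 3. NC replicates 3 and 4 were higher than NC replicates 1 and 2 (log2 difference 0.97, edgeR adjusted p = 0.0271). The NC_Vec libraries were below both pairs, which the rule for naming required. From 42.7 ± 16.8 CPM (SD, n = 4) to 7.72 ± 0.561 CPM (SD, n = 3), it was 5.52-fold lower, with a log2 fold change of -2.48 ± 0.34 (SE, edgeR adjusted p = 0.00707). Against NC replicates 1 and 2 the log2 fold change was -1.91 (adjusted p = 0.00286) and against NC replicates 3 and 4 it was -2.88 (adjusted p = 0.000866). Its TPM went from 7.17 ± 2.83 to 1.2 ± 0.151.

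In the libraries without a vector ENST00000375256.4 did not hold to 1 level. It was at 27.7 and 24.6 CPM in siHMGN5 and at 8.53 and 7.12 CPM in siSTAT3, so 1 of the 2 siSTAT3 libraries, which carry no vector, lay within the range of NC_Vec and the other just above it. The siSTAT3_Vec libraries lay at 4.45, 3.66 and 5.05 CPM. Between siSTAT3 and siSTAT3_Vec the log2 fold change was -0.84 ± 0.22, which did not pass the test (edgeR adjusted p = 0.0634), and the difference from the control siRNA cells did not pass either (-1.63 ± 0.44, adjusted p = 0.0754).

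ENST00000645356.1 and ENST00000245479.2 gave the largest fitted rise and fall among the named candidates, and their reads complemented each other. ENST00000645356.1 had 0 reads in all 4 NC libraries and 1428, 1370 and 1405 reads in NC_Vec replicates 1 to 3, or 66.1, 60.5 and 62.8 CPM. ENST00000245479.2 had 1655, 1849, 537 and 704 reads in NC replicates 1 to 4, or 82.4, 94.9, 28.1 and 36.5 CPM, and 0 reads in all 3 NC_Vec libraries. Taken alone, the first was at least 410.0-fold higher (edgeR adjusted p = 0.000924) and the second at least 447-fold lower (edgeR adjusted p = 0.00581), with 3 reads per library as the floor of the group at 0.

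Under control siRNA their sum did not follow either transcript. It was 82.4, 94.9, 28.1 and 36.5 CPM in NC replicates 1 to 4 and 66.1, 60.5 and 62.8 CPM in NC_Vec replicates 1 to 3, so the NC_Vec libraries lay between the NC pairs. With the 2 transcripts added to 1 row and the whole table refitted, a step chosen after seeing the values, the log2 fold change was 0.05 ± 0.44 (edgeR adjusted p = 0.964). The sum was higher than in NC replicates 3 and 4 by 0.96 on the log2 scale (adjusted p = 0.00864), and against NC replicates 1 and 2 the difference was -0.51 (adjusted p = 0.0701). Under STAT3 siRNA the sum fell with the same change of vector and experiment, from 66.3 CPM in siSTAT3 to 19.9 CPM in siSTAT3_Vec (log2 fold change -1.73 ± 0.07, edgeR adjusted p = 0.000925).

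The complement held in all 17 libraries. Exactly 1 of the 2 transcripts was above 3 reads in each, ENST00000645356.1 in 7 and ENST00000245479.2 in 10, and none had both. Replicates of siSTAT3_Vec split: ENST00000245479.2 had 450, 0 and 446 reads in replicates 1 to 3 and ENST00000645356.1 had 0, 449 and 0, which gave sums of 20, 20 and 19.7 CPM. The lengths of the 2 transcripts, 3922 and 3935 bases, differ by 13 bases, and they stand in adjacent rows of the tables. Both had whole-number reads in every library. Whether they belong to the same gene was not tested, since no table pairs the IDs with genes.

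**Figure D2:**
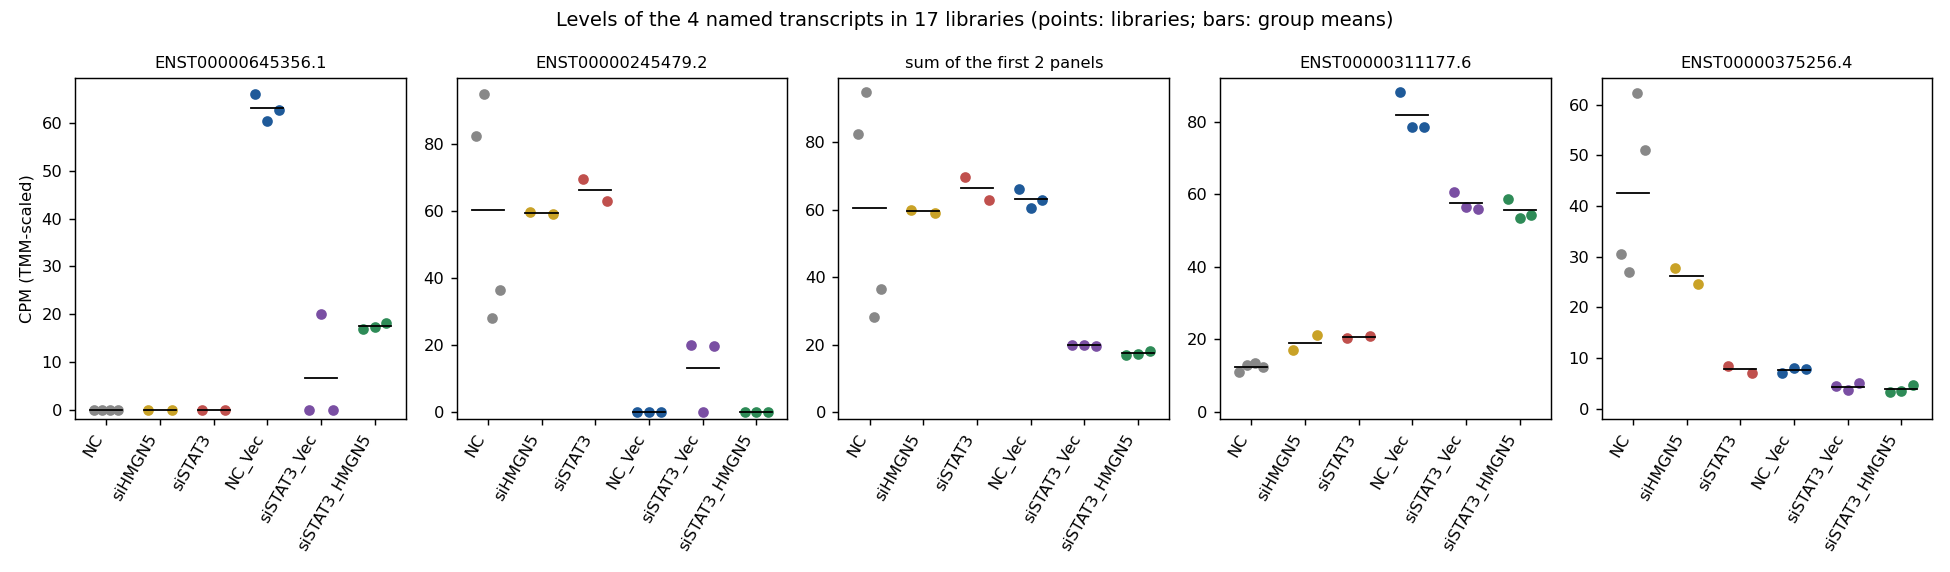
TMM-scaled CPM of the 4 named transcripts, and of the sum of the complementary 2, in each of 17 libraries by group, with bars at group means. ENST00000645356.1 and ENST00000245479.2 are never above the floor in the same library and their sum in NC_Vec (60.5 to 66.1 CPM) lies inside the NC range (28.1 to 94.9 CPM), while ENST00000311177.6 is high in all vector groups.

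Across the table, 3367 transcripts (5.19%) were higher and 3892 (6%) lower in NC_Vec than in NC out of 64857 tested by edgeR at an adjusted p under 0.05, or 11.2% called. For all 7259 calls the 3 NC_Vec libraries lay outside the range of the 4 NC libraries, as they did for 33.7% of all tested transcripts (17.3% above and 16.4% below). The higher transcripts took 10.5% to 11.2% of the reads of an NC library and 20.7% to 22% of those of an NC_Vec library. The lower ones took 19.4% to 20.4% in NC and 9.87% to 10.1% in NC_Vec. The share of both sets thus changed by more than its range within either group, as the choice of the sets implies. The number of calls was 3508, 3814 and 4156 without NC_Vec replicates 1, 2 and 3 in turn, and 5812 to 6786 without any 1 NC library. Higher calls were 46.4% of all calls here, 36.8% to 39.4% without 1 NC_Vec library and 47.2% to 49.2% without 1 NC library. With NC replicates 1 and 2 as the only controls they were 57.9%, and with NC replicates 3 and 4 as the only controls 55.4%. The balance of higher against lower thus moved with which libraries, and how many of each group, were used. The cause was not tested.

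Most of the calls with a very large fitted change were transcripts missing from one group. The median called change was 2.37-fold among higher and 2.5-fold among lower transcripts, also with absent transcripts set at their bound. Under 2-fold lay 1198 of the higher and 1224 of the lower calls, and from 2-fold to under 4-fold lay 1284 and 1568. A fitted change of 16-fold or more was given to 587 higher and 667 lower transcripts, of which 512 and 596 had at most 3 reads in every library of the lower group. Of all called transcripts, 521 were at or under that floor in all NC libraries and 605 in all NC_Vec libraries, 15.5% of the calls in each direction.

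**Figure D3:**
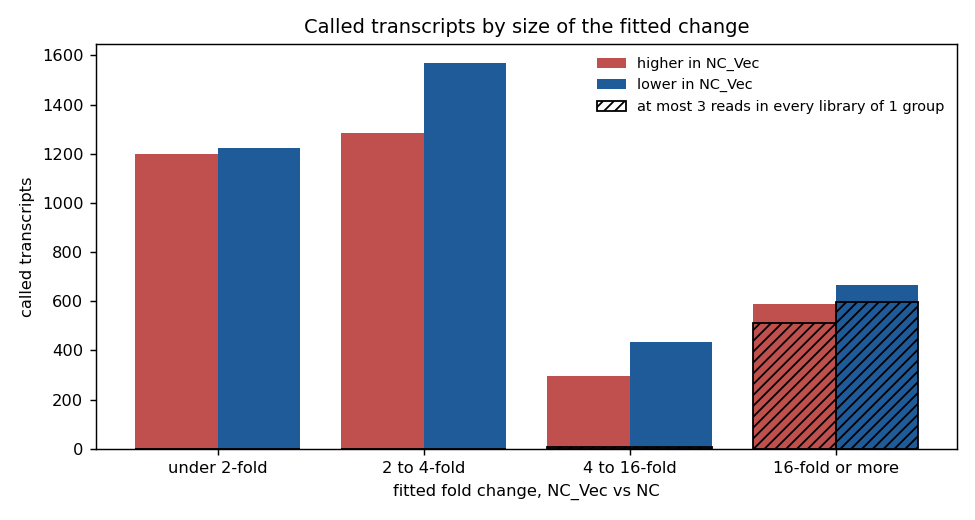
Number of transcripts called higher (red) and lower (blue) in NC_Vec against NC by fitted fold change, with hatching for those at or under 3 reads in every library of 1 group. Of calls of 16-fold or more, 512 of 587 and 596 of 667 are hatched.

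Reads that appear in full or not at all were also found between replicates. In NC_Vec, 844 transcripts had at most 3 reads in one replicate and at least 10 CPM in another, of 18191 that reached 10 CPM in some NC_Vec library. Across the 4 NC libraries there were 1456 such transcripts of 19692. Within NC replicates 1 and 2 there were 481 of 17269, and within NC replicates 3 and 4 there were 501 of 17573. These sets differ in their number of libraries, so the counts are not like for like. Over the 6 groups of the series 3097 transcripts did this in at least 1 group. Of the 2430 tested in NC_Vec against NC, 70 were higher and 80 lower (6.17%). For comparison, 11.2% of all tested transcripts were called, and 25% of those at a mean of 10 CPM or more. A swing within NC or NC_Vec widens the spread used by the test, so the choice of these transcripts itself works against a call.

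The NC pairs were then taken as separate groups in 1 fit of 72610 transcripts. Against NC replicates 1 and 2, 3747 transcripts (5.16%) were higher and 3457 (4.76%) lower in NC_Vec (9.92% called), and against NC replicates 3 and 4, 6068 (8.36%) were higher and 5622 (7.74%) lower (16.1%). The same fit called 3258 transcripts between the NC pairs (4.49%), 1373 higher (1.89%) and 1885 lower (2.6%) in replicates 3 and 4, which compares 2 libraries with 2 rather than 3 with 2. Against both pairs in the same direction, 2437 (3.36%) were higher and 2743 (3.78%) lower (7.13%), and 119 were called in opposite directions. Of the 7259 calls made with all NC libraries together, 4874 were also called against each pair in the same direction.

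At the transcripts that told the NC pairs apart, NC_Vec was mostly nearer to the first pair. Its mean was nearer to NC replicates 1 and 2 for 2320 of the 3258 (71.2%) and nearer to NC replicates 3 and 4 for 938. It lay between the pair means for 1439, above both for 1424 and below both for 395. Of the 3258, 1310 differed between NC_Vec and NC replicates 1 and 2 and 2435 between NC_Vec and NC replicates 3 and 4. Over all 72610 transcripts of that fit the shares were 9.92% and 16.1%. The 3258 were chosen in the same fit for a difference between the pairs, which favours a difference of NC_Vec from at least 1 pair.

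Calls were more frequent among abundant transcripts. Under a mean of 2 CPM 3.81% of 26267 tested transcripts were called, from 2 to under 10 CPM 10.1% of 22716, from 10 to under 50 CPM 22.2% of 11995, and at 50 CPM or more 33.8% of 3879. At 50 CPM or more 680 were higher and 630 lower, whereas from 10 to under 50 CPM 1177 were higher and 1487 lower. Among the 400 tested transcripts with whole-number reads in all libraries, 37 were higher and 26 lower (15.8%).

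Direction differed with transcript length. Among transcripts at or above a mean of 10 CPM, 11.7% were called higher and 13.3% lower in NC_Vec. The 3048 of 5000 bases or more included 221 higher (7.25%) and 418 lower (13.7%), and their median log2 fold change was -0.08 against 0.00 over all 15874 transcripts of that level. Of 883 under 500 bases, 198 were higher and 132 lower, with a median of 0.10. The share of long transcripts called lower was thus close to that of all transcripts and the share called higher was below it, while those under 300 bases were called more often than all transcripts in both directions (25.7% higher and 17.8% lower). The direction of both balances was the same with the RLE scaling of DESeq2, the effective length offset and limma-voom. With NC replicates 1 and 2 as the reference, 328 long transcripts rose and 458 fell. With NC replicates 3 and 4 the balance was nearly even, at 631 and 677. Without NC_Vec replicate 1, 87 long transcripts were higher and 196 lower, and 110 short ones were higher and 78 lower. In whole libraries, transcripts of 5000 bases or more took 18.9% to 19.8% of the reads in NC and 17.2%, 18.9% and 18.2% in NC_Vec replicates 1 to 3. The part of this library composition in the calls was not tested. In the STAT3 siRNA cells 767 long transcripts rose and 714 fell from siSTAT3 to siSTAT3_Vec, and 318 short ones rose and 161 fell. Calls there were more often higher in general, and the median log2 fold change was -0.02 for long and 0.22 for short transcripts against 0.09 over all of that level, so relative to all transcripts the medians lay on the same sides as under control siRNA.

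**Figure D4:**
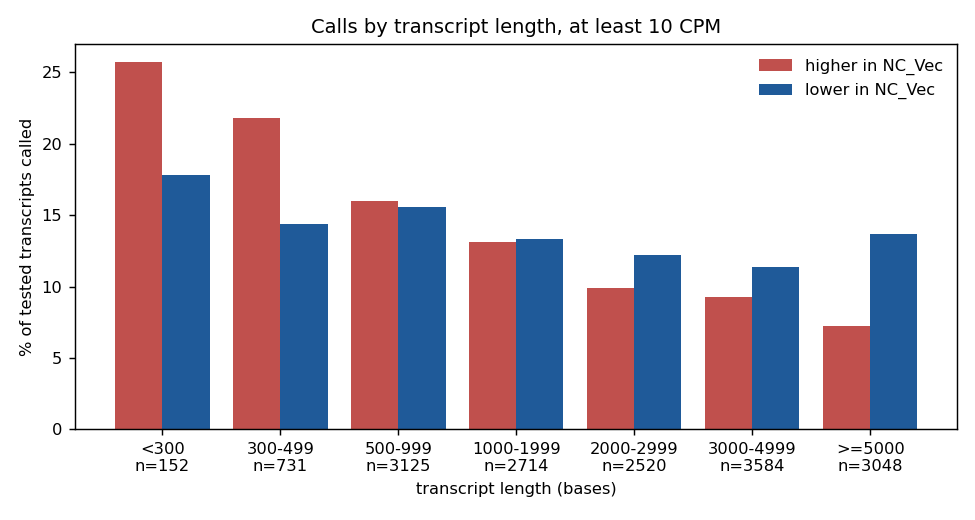
Percentage of tested transcripts at 10 CPM or more called higher (red) or lower (blue) in NC_Vec against NC, by transcript length in bases. The share called higher goes from 25.7% under 300 bases to 7.25% at 5000 bases or more. The share called lower is 17.8% and 13.7% there and lowest, at 11.4%, from 3000 to under 5000 bases.

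The same change of vector and experiment was present in cells with STAT3 siRNA, where siSTAT3_Vec and siSTAT3 share no library with NC_Vec and NC. There 8211 transcripts (11.7%) were higher and 5993 (8.53%) lower of 70234 tested (20.2% called). Of the 3243 transcripts higher in NC_Vec and tested in both, 1766 (54.5%) were also higher in siSTAT3_Vec, 100 were lower and 1377 were not called. As the base for the 54.5%, 12.6% of all transcripts tested in both were called higher in siSTAT3_Vec. The 1766 were 23.1% of the 7640 called higher there, where 5.19% of all transcripts tested in NC_Vec against NC were higher. Of the 3768 lower in NC_Vec, 1538 (40.8%) were also lower in siSTAT3_Vec, 134 were higher and 2096 were not called. These 1538 were 27.3% of the 5637 called lower there, against 9.28% of all transcripts tested in both.

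Called transcripts that held against both NC pairs were shared at a higher percentage than all calls. Of 2118 higher transcripts, 1319 (62.3%) were higher in siSTAT3_Vec and 69 lower, and of 2595 lower ones, 1198 (46.2%) were lower and 98 higher. The difference of these shares from those of all calls, which include these transcripts, was not tested. In the STAT3 siRNA cells the number of calls was 14204 with all libraries, 8250 without siSTAT3 replicate 1, 8412 without siSTAT3 replicate 2 and 9301 without siSTAT3_Vec replicate 2. The lower calls went from 5993 to 2049 without siSTAT3 replicate 1 and to 2111 without siSTAT3 replicate 2, while the higher calls went from 8211 to 6201 and 6301. The shared counts were not recomputed without these libraries.

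Fold changes in the 2 siRNA backgrounds went together across transcripts. Over 60746 transcripts tested in both, Pearson's r was 0.454 and Spearman's rho 0.465. Over 15825 whose mean in NC and NC_Vec was 10 CPM or more they were 0.599 and 0.531. Without the transcripts that switched between full and absent within a group, Pearson's r was 0.703 over 14751 and Spearman's rho was again 0.531. These are descriptions across transcripts, which share libraries and are not independent replicates.

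**Figure D5:**
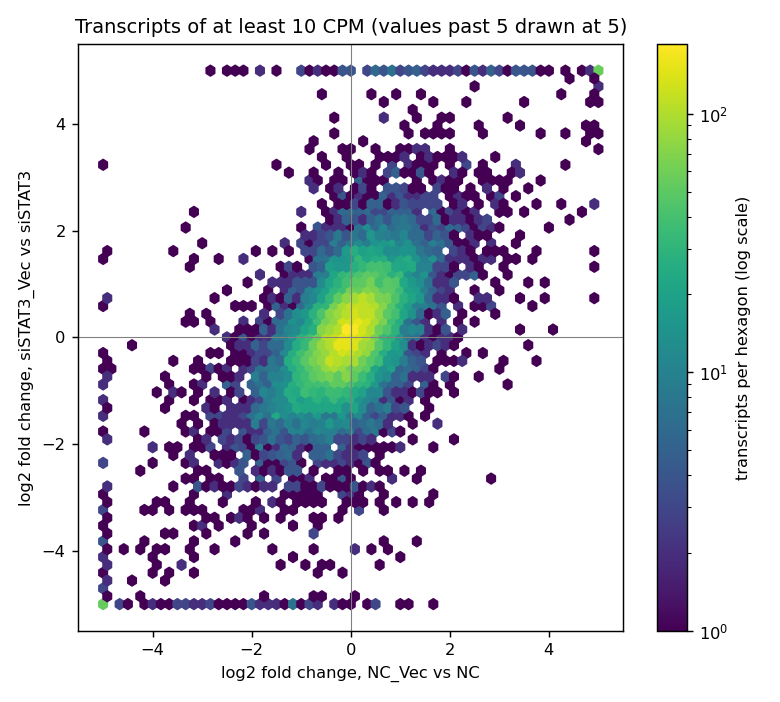
Log2 fold change of siSTAT3_Vec over siSTAT3 (vertical) against that of NC_Vec over NC (horizontal) for transcripts of at least 10 CPM, coloured by the number of transcripts per hexagon on a log scale, with values past 5 drawn at 5. The cloud runs from lower left to upper right (r = 0.599 over 15825 transcripts).

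The size of the change nevertheless differed between the 2 siRNA backgrounds for some transcripts. Whether the siRNA itself or another difference between these libraries gave this was not tested. In 1 fit of the 12 libraries, the change from no vector to vector differed between control and STAT3 siRNA for 3587 of 81234 transcripts (4.42%), being more positive under control siRNA for 1466 (1.8%) and more negative for 2121 (2.61%). Among the transcripts higher in NC_Vec and tested in both siRNA backgrounds 544 showed such a difference, 364 of them with the larger rise under control siRNA, and among those lower in NC_Vec 639 did, 529 with the larger fall. These transcripts were chosen for their change under control siRNA, which favours that direction. Without siSTAT3 replicate 1 or 2 the count was 2371 or 2351.

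Over the whole series, 2761 of 86839 transcripts had all 9 vector libraries above all 8 libraries without a vector (3.18%), and 2250 had all 9 below (2.59%). Of these, 1397 and 1330 were called higher or lower in NC_Vec against NC, where 5.19% and 6% of all tested transcripts were. The 17 libraries include the 7 of NC_Vec and NC, so the choice of these transcripts favours such calls. Among the 15826 transcripts of at least 10 CPM the counts were 1481 above (9.36%) and 886 below (5.6%).

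The candidates from which the 4 named transcripts were taken numbered 28 rising and 24 falling. All passed the test and have whole-number reads, a mean of at least 2 CPM and groups that do not overlap. The calls against each NC pair reuse the same libraries, so this choice favours them, also for the 4 named transcripts. The rising ones ranged from 0.47 to 13.34 in log2 fold change with a median of 1.22, and the falling ones from 0.42 to 13.30 in size with a median of 1.09. After the complementary 2, the largest were 2.70 and 2.48. Of the 28, 22 were called higher against both NC pairs, and 19 of 27 tested were called higher in siSTAT3_Vec than in siSTAT3 and 1 lower. Of the 24, 21 were called lower against both NC pairs, 15 were called lower in siSTAT3_Vec and 3 higher. Among all calls, 4874 of 7259 were called against both NC pairs, and 54.5% of the higher and 40.8% of the lower were called the same way in the STAT3 siRNA cells. Whether the candidates differ from all calls in these shares was not tested.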

How the data were processed

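Poly(A) RNA of 17 libraries was quantified per transcript by the authors. The deposited columns are those Salmon writes, and the submitters' processing notes name Salmon 1.4.0 and the builds GRCh38 and hg38, with no role; no transcript release or mapping option is given in the sources used here. The deposited files hold expected counts (estimated reads, with a read that fits several transcripts divided by a model) and TPM scaled by effective length. The authors' expected counts were rounded and tested per transcript with edgeR 4.0.16 in R 4.3.3 (TMM scaling, filterByExpr, glmQLFit and glmQLFTest, Benjamini-Hochberg adjustment over all transcripts tested, threshold 0.05) on the 7 libraries compared; standard errors are the fold change over the square root of the statistic. The 3-group fit with NC as 2 pairs gives the values against each pair. Printed CPM were TMM-scaled over 17 libraries. The fit was tested on simulated data.

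No table at hand pairs transcript IDs with genes, so sums per gene, gene lists and cell markers were not run. Named transcripts are the 2 largest rises and 2 largest falls that passed the test, reached a mean of 2 CPM, showed no overlap between groups and had reads that were whole numbers (to 0.0015) in each of the 17 libraries. Members, lists and rules were chosen with earlier results of these data known. No sign was seen that the replicate numbers pair the libraries, which does not exclude it. Alternatives were DESeq2 1.42.0, limma-voom (limma 3.58.1), other scaling, filters and offsets, other control libraries, a replicate block and leaving out each library. H3K27ac profiles are not analysed here.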

Additional observations from a re-analysis of the deposited data

Results flagged for a closer look

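The change from no vector to vector differed between control and STAT3 siRNA for 3587 transcripts by a test of the difference itself (edgeR interaction contrast on 12 libraries, adjusted p under 0.05). ENST00000311177.6 was among them, with a rise larger by 1.22 on the log2 scale under control siRNA (adjusted p = 0.000726). Among NC libraries, replicate 1 lay far from the other 3 in the share of reads on transcripts of 5000 bases or more, at 19.8% against 18.9% to 19%, a gap of 0.914 of the range of the group. Of 10 quantities taken up in this way 1 stood out, and chance marks about 1 group in 20. Among the 10, ENST00000645356.1 was at 0 in all NC libraries and could not be checked. The sum of the complementary transcripts equals ENST00000245479.2 in NC, so it adds no separate check.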

How the results depend on the processing

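With 7259 calls as the reference for NC_Vec against NC, DESeq2 gave 14030, no low-count filter 4745, NC replicates 3 and 4 as the only controls 11259, and leaving out each library 3508 to 6786. The balance of higher against lower calls turned with NC replicates 1 and 2 alone (4131 higher, 3009 lower), with NC replicates 3 and 4 alone (6241 higher, 5018 lower) and with limma-voom (4386 higher, 3954 lower). For the 14204 calls in STAT3 siRNA cells the counts were 23344 with DESeq2, 9156 among transcripts of at least 10 CPM, and 8250 to 10594 without each library. For the 3587 differences between siRNA backgrounds they were 9205 with DESeq2, 8309 with NC replicates 3 and 4 alone, and 2351 to 3915 without each library. The cause of these shifts was not tested. Apart from the replicate block, given next, the remaining settings kept each count within 1.5 times.

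Same-numbered NC and NC_Vec libraries did not deviate together (r of 0.01, 0.02 and -0.03 across transcripts for numbers 1 to 3). Libraries with different numbers gave r of -0.03 to 0.04. No sign of pairing by number was thus seen, which does not exclude it. With a replicate block, which leaves 2 residual degrees of freedom in place of 5, edgeR called 0 transcripts in NC_Vec against NC (11801 at an unadjusted p under 0.05; DESeq2 without the block called 14030), 0 in STAT3 siRNA cells with 1 residual degree of freedom (16018 unadjusted; DESeq2 without the block 23344), and 1662 for the difference. The 4 named transcripts kept their direction with the block, at adjusted p of 0.145 to 0.155.

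Of 20 alternatives each, ENST00000311177.6 and ENST00000375256.4 stayed called in 19. ENST00000245479.2 was not called by limma-voom (adjusted p = 0.222), and summed with ENST00000645356.1 its log2 fold change turned from a fall to 0.0453. The summed row and the removal of switching transcripts were chosen after seeing the data. Sums per gene were not run, since no table pairs transcripts with genes. Changes in transcripts near 3 reads are beyond this depth.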

Other observations

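Further IDs with complementary reads were looked for among calls absent from one group. At most 3 reads in every NC library and at least 2 CPM in NC_Vec was found for 343 called transcripts, and the reverse for 412. Within 5 rows of each other in the tables, 42 pairs of one rising and one falling transcript of this kind were found, 9 in adjacent rows. The lengths differed by under 100 bases in 21 of the 42, and in 12 exactly 1 of the 2 was above 3 reads in all 17 libraries. Summed to 1 row each and refitted with the whole table, 10 of the 42 sums were called, 4 higher and 6 lower (edgeR adjusted p under 0.05). For comparison, 11.2% of all tested transcripts were called, and 25% of those at a mean of 10 CPM or more. The median size of the log2 change was 0.60 for the sums and 10.03 for the rising members alone. The pairs were picked for opposite directions, which draws a sum towards no change, and the tables do not say how their rows are ordered.

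A called transcript had another call of the same direction within 5 rows in 39.9% of higher and 44.5% of lower calls, where 21.2% and 23.8% of all tested transcripts had such a neighbour. A call of the opposite direction stood within 5 rows of 24.2% of higher and 21.2% of lower calls, against 23.8% and 21.2% of all tested transcripts. For higher and lower calls absent from one group the share with an opposite neighbour was 32.1% and 28.2%.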
